A study of Mus musculus with 20 samples.

Results

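The series holds 20 mouse hearts, part of them under pressure overload and part of them from mice made for a heart-muscle deletion of Wnt5a. Sfrp1, Sfrp2, Sfrp5, Frzb, Wif1, Dkk2 and Dkk3 encode secreted antagonists of Wnt signalling, and their messenger RNA was measured in these hearts. They are 7 of the 23284 genes in the deposited tables and were chosen by symbol, with their levels in these same hearts already known. The differences below therefore describe those hearts. The adjusted p-values come from 1 fit over all genes tested and are not independent evidence about the 7.

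Wnt proteins are secreted lipid-modified ligands that bind Frizzled receptors together with the co-receptors Lrp5 and Lrp6, or with Ror and Ryk receptors in the branches that do not use beta-catenin. Secreted Frizzled-related proteins (Sfrp1, Sfrp2, Sfrp5 and Frzb, which is also called Sfrp3) carry a cysteine-rich domain like that of Frizzled and bind Wnt ligands outside the cell. Wif1 binds Wnt ligands through a domain of its own. Dickkopf proteins act on the co-receptors instead: Dkk2 binds Lrp5 and Lrp6 and works with Kremen receptors, while Dkk3 is the divergent member for which such binding is not established. Fibroblasts are a known source of several of these proteins in the heart.

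The sequence before the gene start is shown for Sfrp2, which was higher after pressure overload, and for Wif1, which was lower in part of the hearts, so that the upstream sequence of members that went in opposite directions can be compared. Entries were matched for 5 of the 7 members, Sfrp2, Sfrp5, Frzb, Dkk2 and Wif1. The sequences are those of RefSeq on GRCm38.p6, plus strand, at chr3:83766071-83766320 for Sfrp2 and chr10:121033754-121033959 for Wif1. Capitals mark a match to a searched motif on the opposite strand.
Sfrp2: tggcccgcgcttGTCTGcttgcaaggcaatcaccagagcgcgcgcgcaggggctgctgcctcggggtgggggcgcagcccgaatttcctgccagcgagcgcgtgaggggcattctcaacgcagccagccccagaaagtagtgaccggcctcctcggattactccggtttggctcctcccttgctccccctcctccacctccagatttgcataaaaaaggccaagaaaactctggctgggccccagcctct
Wif1: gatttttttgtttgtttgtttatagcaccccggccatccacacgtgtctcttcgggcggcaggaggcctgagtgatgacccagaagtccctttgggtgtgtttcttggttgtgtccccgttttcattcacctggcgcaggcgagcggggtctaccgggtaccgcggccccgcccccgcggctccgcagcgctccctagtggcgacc
Both strands were searched for GGAATG (TEAD, the partner of YAP named in the series title), CTTTGA (TCF/LEF, the factors of the beta-catenin branch) and CAGAC (SMAD), which do not overlap each other in these windows. The Sfrp2 window held 1 match, to CAGAC on the opposite strand at position -238 from the gene start. The Sfrp5 window held the same letters on the opposite strand at -110, and the windows of Wif1, Dkk2 and Frzb held no match, the last over 21 bases only. Of 27025 promoters cut to 250 bases, 42.1% held CAGAC, 12.6% GGAATG and 14.0% CTTTGA; cut to 206 bases, as for Wif1, the shares were 36.6%, 10.9% and 12.3%.

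All mice were C57BL/6 and carried floxed Wnt5a alleles. Control mice had the genotype Wnt5a floxed, and CKO mice (conditional knockout) are labelled Wnt5a floxed with Myh6-Cre/Esr 1, in which the Myh6 promoter of heart muscle cells drives a Cre recombinase that tamoxifen activates. Other heart cells, fibroblasts included, are not targeted by that promoter. The control genotype as labelled has no Cre, so effects of the deletion and of the Cre transgene cannot be told apart. Hearts of both genotypes were taken when tamoxifen treatment ended, and 2 and 4 weeks after a sham operation or TAC (transverse aortic constriction, in which a ligature narrows the aortic arch and the left ventricle must pump against a higher load). The labels do not give age or how much of the heart was taken. Each of the 10 groups held 2 hearts. Control hearts were numbered 22 and 23 at the end of tamoxifen, 12 and 16 (sham) and 11 and 32 (TAC) at 2 weeks, and 6 and 7 (sham) and 1 and 2 (TAC) at 4 weeks. CKO hearts were numbered 21 and 24 at the end of tamoxifen, 14 and 15 (sham) and 13 and 31 (TAC) at 2 weeks, and 4 and 8 (sham) and 3 and 41 (TAC) at 4 weeks. Levels are FPKM, fragments scaled to transcript length and to the size of the library, and can be compared between genes. On mm10 (GENCODE M21) the protein-coding members lie at chr8:23411502-23449632 (Sfrp1), chr3:83766321-83774316 (Sfrp2), chr19:42197971-42202252 (Sfrp5), chr2:80411970-80447625 (Frzb), chr10:121033960-121100650 (Wif1), chr3:132085292-132180304 (Dkk2) and chr7:112116017-112159057 (Dkk3).

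Wnt5a itself was 2.55 to 4.11 FPKM in the 6 control hearts without TAC and 1.58 to 2.06 in the 4 control TAC hearts. The matching CKO hearts held 1.61 to 2.33 and 0.853 to 1.57. Wnt5a did not pass in any comparison of CKO against control hearts in the limma fit. The tables give the whole gene, so they do not show whether the floxed part was missing, and the gene overlaps the antisense gene Gm2670. Esr1, whose sequence is part of the Cre transgene, was 197 to 931 FPKM in the 10 CKO hearts and at most 0.465 in the controls. A set of 5 hearts stood apart by their atrial transcripts. Myl7, the atrial myosin light chain, was 32.2 to 372 FPKM in hearts 11, 14, 16, 21 and 24, and at most 1.66 in the other 15. Relative depth ran from 0.89 to 1.223, and the FPKM of the 7 genes were whole multiples of a common step, so that fragments could be inferred. Summed over the hearts these were 5246 for Sfrp1, 1866 for Frzb, 1716 for Dkk3, 770 for Sfrp2, 338 for Wif1, 124 for Sfrp5 and 28 for Dkk2. Counting intervals given below are 95% Poisson intervals and cover counting error only.

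Taken over the 7 genes, control hearts held more antagonist RNA after TAC and CKO hearts at 4 weeks did not. The summed level was 50.4 ± 2.89 FPKM (SD, n = 2) in control TAC hearts at 2 weeks against 14.6 ± 2.66 in control sham hearts, and 26.2 ± 1.11 against 10.3 ± 0.454 at 4 weeks. In CKO hearts it was 24.5 ± 2.54 against 15.7 ± 3.44 at 2 weeks and 10.4 ± 0.535 against 12.2 ± 0.274 at 4 weeks. The 2 hearts of each TAC group therefore lay above their shams, except in CKO hearts at 4 weeks, where both lay below. At the end of tamoxifen the sum was 13.5 ± 1.73 FPKM in control and 22.2 ± 1.08 in CKO hearts. Both of those CKO hearts, 21 and 24, are among the 5 with atrial transcripts, so genotype and atrial content cannot be told apart there. In whole tissue, fewer cells of a type and less RNA per cell cannot be told apart.

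**Figure D1:**
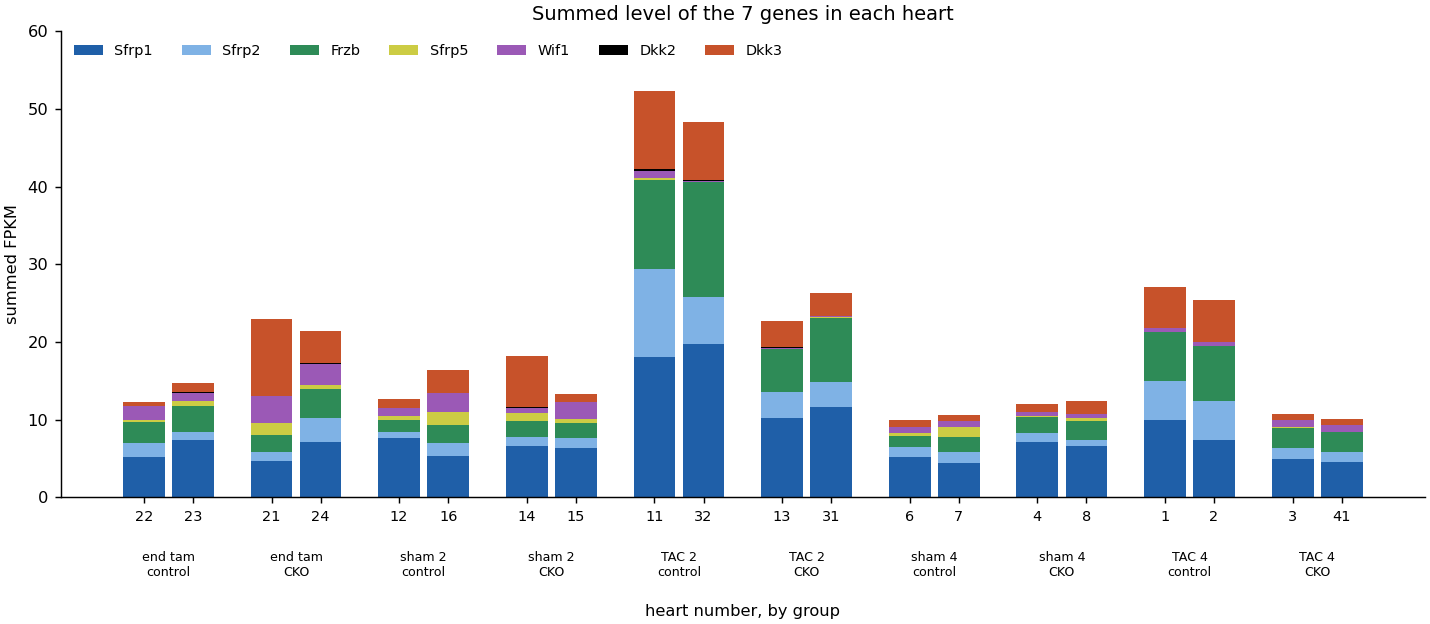
Summed FPKM of the 7 genes in each of the 20 hearts (bars, 1 per heart, stacked by gene), ordered by group; end tam is the end of tamoxifen, and 2 and 4 are weeks after surgery. The 2 control TAC hearts at 2 weeks reach 52.4 and 48.3 FPKM, and Sfrp1 is the largest piece of every bar but that of heart 21.

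Sfrp1 was the most abundant of the 7 in 19 hearts, and Dkk3 in heart 21. Frzb came next in 15 hearts. Sfrp1 made up 20.5% of the sum in heart 21, 60.3% in heart 12 and values between them elsewhere. Dkk2 was sixth or seventh in 19 hearts and Sfrp5 in 16. The order of Sfrp2, Dkk3 and Wif1 in the middle differed between hearts.

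Sfrp1, a Frizzled-related protein that binds several Wnt ligands, was 18.1 and 19.7 FPKM in the control TAC hearts 11 and 32 at 2 weeks, against 7.66 and 5.39 in the sham hearts 12 and 16. At 4 weeks the control TAC hearts 1 and 2 held 9.93 and 7.38 FPKM and the sham hearts 6 and 7 held 5.15 and 4.47. TAC and sham hearts did not overlap at either time, as was so for 61.3% of all genes tested at 2 weeks and 56.7% at 4 weeks, and the 2-week TAC hearts were the 2 highest of all 20. Among CKO hearts Sfrp1 was 10.2 and 11.7 FPKM after TAC (hearts 13 and 31) and 6.62 and 6.33 after sham (hearts 14 and 15) at 2 weeks. It was 4.91 and 4.60 FPKM after TAC (hearts 3 and 41) and 7.18 and 6.65 after sham (hearts 4 and 8) at 4 weeks. The CKO order was thus turned around between the times, with TAC above sham at 2 weeks and below it at 4 weeks, without overlap at either. In CKO hearts 61.3% of all genes did not overlap at 2 weeks and 41.9% at 4 weeks. At the end of tamoxifen the 4 hearts held 5.21, 7.38, 4.71 and 7.19 FPKM (hearts 22, 23, 21 and 24), and the genotypes overlapped.

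Sfrp2, a Frizzled-related protein also known to bind procollagen proteinases, was lower than Sfrp1 in every heart. In controls it was 11.3 and 6.16 FPKM after TAC and 0.783 and 1.63 after sham at 2 weeks, and 5.04 and 4.99 after TAC and 1.34 and 1.39 after sham at 4 weeks. All 4 control TAC hearts lay above every other heart of the series. In 23.6% of all genes tested the 4 control TAC hearts did not overlap the 4 control sham hearts, in either direction. CKO hearts held 3.40 and 3.18 FPKM after TAC and 1.18 and 1.30 after sham at 2 weeks, and 1.41 and 1.29 after TAC and 1.17 and 0.809 after sham at 4 weeks. The 4-week CKO groups did not overlap, as was so for 41.9% of all genes tested, although 1.29 and 1.17 FPKM lay close together. At the end of tamoxifen hearts 22, 23, 21 and 24 held 1.82, 0.990, 1.10 and 3.10 FPKM. Its gene overlaps the antisense gene Gm26771 on the opposite strand, and the sources used here do not state whether fragments were counted by strand. The lowest heart rests on 10 fragments and the highest on 174.

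Frzb, the third Frizzled-related protein with a clear level, followed Sfrp2 closely. Control hearts held 11.4 and 14.7 FPKM after TAC and 1.55 and 2.29 after sham at 2 weeks, and 6.31 and 7.16 after TAC and 1.47 and 1.88 after sham at 4 weeks. CKO hearts held 5.50 and 8.27 FPKM after TAC and 2.04 and 1.93 after sham at 2 weeks, and 2.62 and 2.51 after TAC and 2.01 and 2.38 after sham at 4 weeks. Over both times the TAC and sham hearts of either genotype did not overlap, as was so for 23.6% of all genes tested in controls and 7.05% in CKO hearts, although at 4 weeks the CKO TAC hearts were within the range of the end-of-tamoxifen hearts, which held 2.67, 3.42, 2.23 and 3.68 FPKM (hearts 22, 23, 21 and 24).

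Sfrp5, a Frizzled-related protein known as an adipose-derived antagonist of Wnt5a, was low everywhere and went the other way. It was 0.276 and 0.0750 FPKM in the control TAC hearts at 2 weeks and listed at 0 in both at 4 weeks, against 0.498 and 1.72 and 0.285 and 1.39 in the matching sham hearts. CKO hearts held 0 and 0.0673 FPKM after TAC and 1.09 and 0.517 after sham at 2 weeks, and 0.175 and 0.0803 after TAC and 0.165 and 0.390 after sham at 4 weeks. The 4 control TAC hearts lay below the 4 control sham hearts, and the 4-week CKO groups overlapped. In 23.6% of all genes tested these 4 control TAC and 4 control sham hearts did not overlap, in either direction. At the end of tamoxifen hearts 22, 23, 21 and 24 held 0.251, 0.565, 1.53 and 0.523 FPKM. The control TAC hearts at 4 weeks rest on 0 fragments, for which the counting interval reaches 3.69, and their shams on 21 (13.0 to 32.1). Sfrp5 was under the mean of 0.5 FPKM that the fit asked for. In the fit with no such filter its log2 difference (TAC minus sham, control hearts, both times) was -1.22 ± 0.32 (SE), with a limma adjusted p of 0.017, and in CKO hearts -0.78 ± 0.32 (adjusted p = 0.19). A fitted difference against hearts at 0 depends on the added 0.5 FPKM and is no bound.

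Wif1, which binds Wnt ligands directly, fell in CKO hearts at 2 weeks. It was 0.176 and 0.112 FPKM in the CKO TAC hearts and 0.649 and 2.15 in the CKO sham hearts at that time. Control hearts at 2 weeks held 0.977 and 0.0624 FPKM after TAC and 0.967 and 2.37 after sham, which overlap. At 4 weeks the levels were 0.538 and 0.477 FPKM after TAC and 0.770 and 0.679 after sham in controls, and 0.875 and 0.869 after TAC and 0.481 and 0.454 after sham in CKO hearts. So at 4 weeks TAC hearts lay below sham hearts in controls and above them in CKO hearts. Of all genes tested, 56.7% did not overlap in controls at 4 weeks and 41.9% in CKO hearts. The control groups rest on 17 fragments after TAC (9.90 to 27.2) and 23 after sham (14.6 to 34.5). The CKO groups rest on 25 (16.2 to 36.9) and 14 (7.65 to 23.5), so the counting intervals overlapped in both genotypes. Neither difference passed in the fit (limma adjusted p = 0.73 and 0.66). The 2 highest of all 20 hearts were the CKO hearts 21 and 24 at the end of tamoxifen, with 3.45 and 2.73 FPKM, while the control hearts 22 and 23 held 1.81 and 1.14. The 2-week CKO TAC hearts rest on 3 and 2 fragments, and the control TAC heart 32 on 1.

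Dkk3, the divergent Dickkopf protein, had the largest SD between hearts of 1 group in FPKM, 4.14 in the CKO hearts 21 and 24. Control hearts held 10.1 and 7.53 FPKM after TAC and 1.16 and 3.02 after sham at 2 weeks. At 4 weeks they held 5.17 and 5.38 after TAC and 0.880 and 0.833 after sham. TAC and sham hearts did not overlap at either time, nor did they in 61.3% of all genes tested at 2 weeks and 56.7% at 4 weeks. CKO hearts held 3.41 and 2.97 FPKM after TAC and 6.54 and 1.02 after sham at 2 weeks, and 0.801 and 0.691 after TAC and 0.932 and 1.68 after sham at 4 weeks. The 2-week CKO groups overlapped, because the sham heart 14 was above both TAC hearts. At the end of tamoxifen hearts 22 and 23 held 0.450 and 1.17 FPKM and the CKO hearts 21 and 24 held 9.94 and 4.09.

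Dkk2, the Dickkopf protein that binds Lrp5 and Lrp6, was barely detected. It was 0 to 0.167 FPKM, which is 0 to 5 fragments a heart, and 5 hearts had none. The counting interval of 0 fragments reaches 3.69, so only large differences between groups could have been seen at this depth. The highest group, control TAC hearts at 2 weeks, rests on 8 fragments (3.45 to 15.76). Its largest log2 difference of TAC against sham, 0.19 ± 0.10 (SE) in control hearts at 2 weeks, had a limma adjusted p of 0.23 in the fit with no filter.

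**Figure D2:**
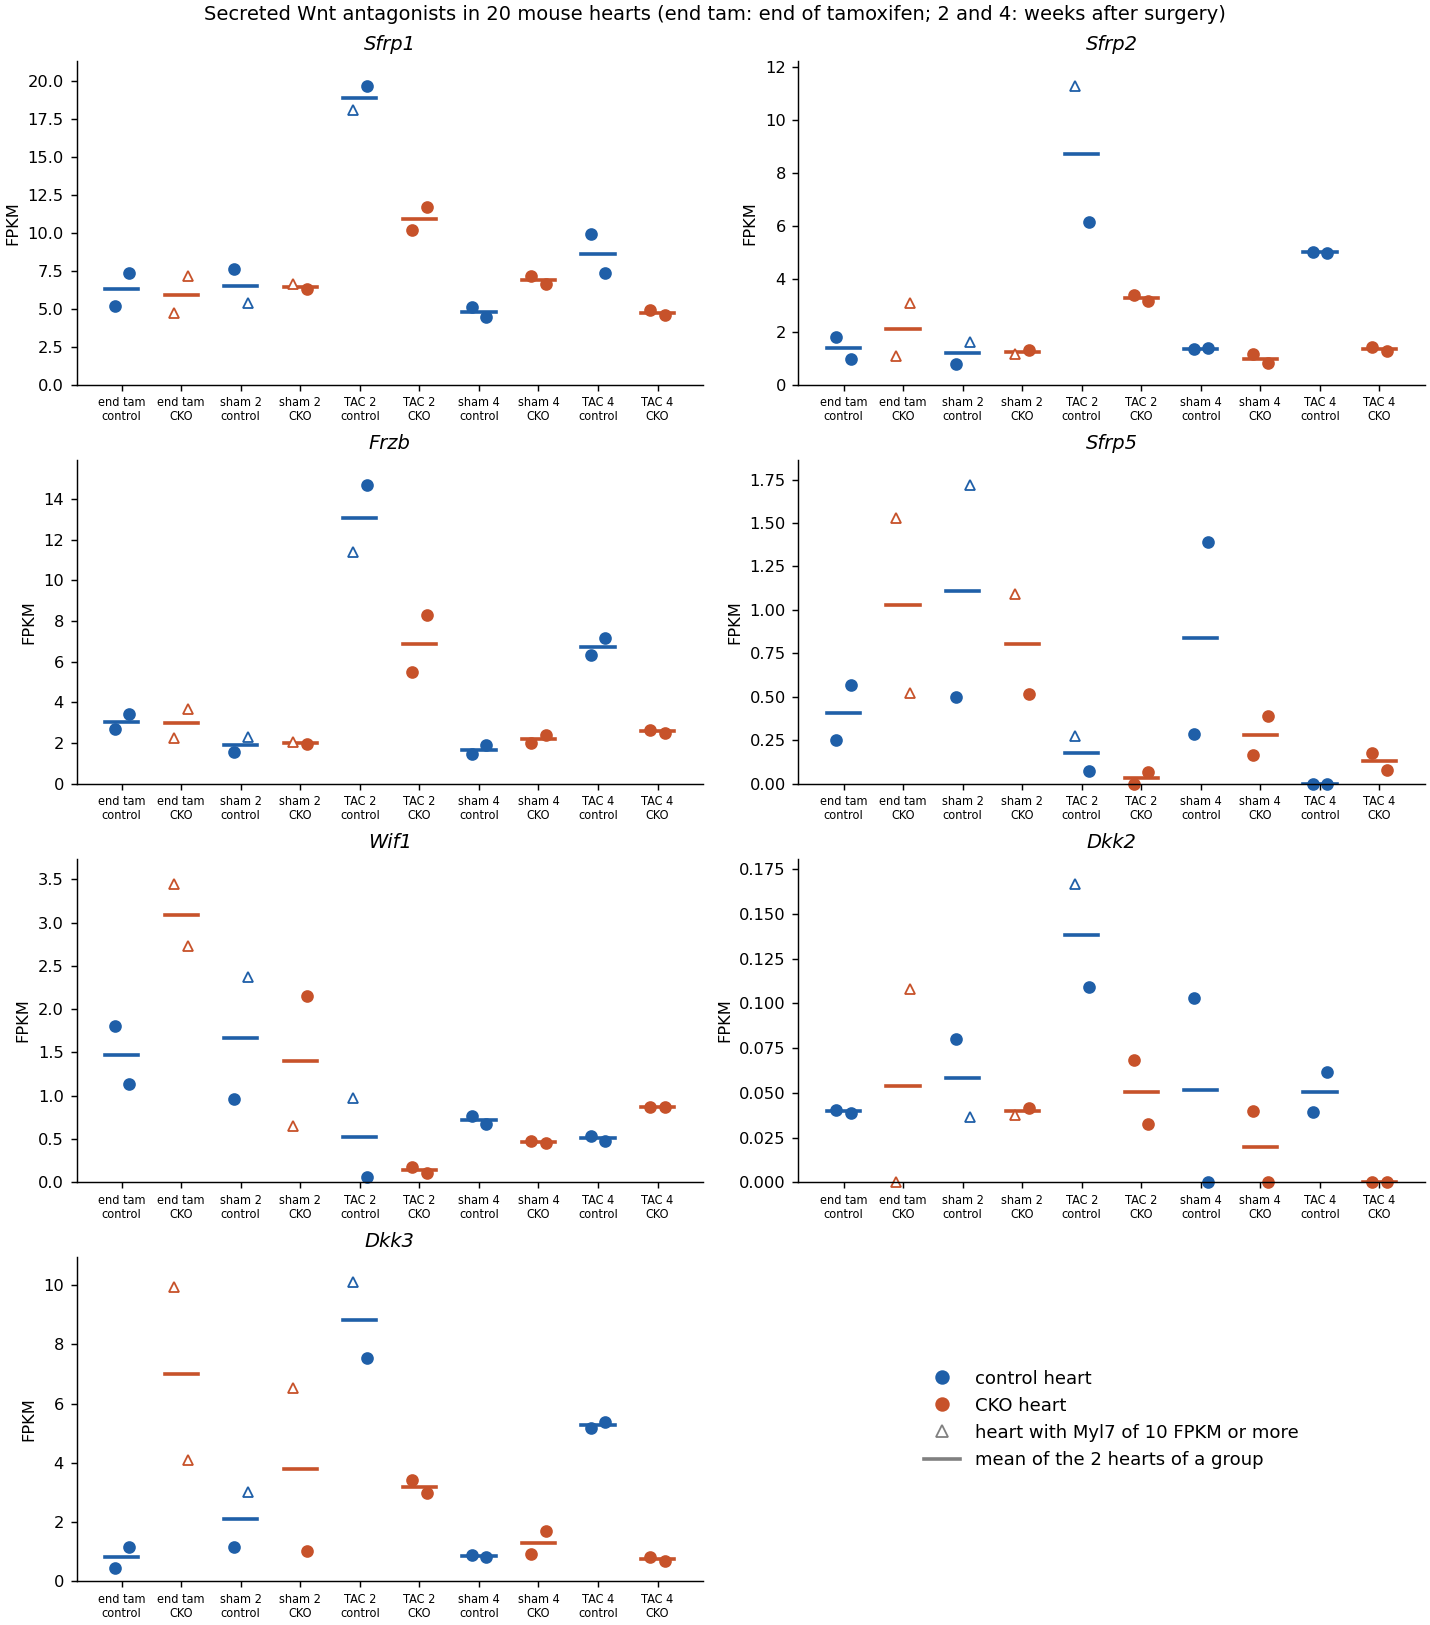
FPKM of each of the 7 genes (vertical axes start at 0) in each heart, by group; symbols are hearts, bars the mean of the 2 hearts, and open triangles the 5 hearts that reached 10 FPKM of Myl7. Sfrp1, Sfrp2 and Frzb are highest in the control TAC hearts at 2 weeks, where Sfrp1 is 18.1 and 19.7 FPKM, and Dkk3 is also high in open triangles without TAC.

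The next comparison asks what TAC did in each genotype. Sfrp1, Sfrp2, Frzb, Dkk3 and Wif1 reached a mean of 0.5 FPKM over the hearts and entered the fit of 12589 genes, 5 of the 7 members. In control hearts over both times, 4 of the 5 rose at an adjusted p under 0.05, while 31.4% of all genes tested were called in either direction. Frzb rose by 2.11 ± 0.16 on the log2(FPKM + 0.5) scale (SE, limma adjusted p = 1.3e-06), which is 4.33-fold. Dkk3 rose by 2.01 ± 0.40 (adjusted p = 0.0020), Sfrp2 by 2.00 ± 0.25 (adjusted p = 5.9e-05) and Sfrp1 by 1.13 ± 0.15 (adjusted p = 7.5e-05). Wif1 differed by -0.73 ± 0.31 (adjusted p = 0.091), and passed without heart 11 (-1.07), heart 12 (-0.97) or all hearts with atrial transcripts (-0.83). The 4 calls were made under every alternative that tested the gene. The median of the 5 was 2.00, against 0.00 over all genes.

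In CKO hearts over both times only 1 of the 5, Frzb, passed, with a rise of 0.87 ± 0.16 (adjusted p = 0.0073), while 9.11% of all genes were called. Sfrp2 differed by 0.72 ± 0.25 (adjusted p = 0.088), Sfrp1 by 0.11 ± 0.15 (adjusted p = 0.69), Dkk3 by -0.17 ± 0.40 (adjusted p = 0.84) and Wif1 by -0.47 ± 0.31 (adjusted p = 0.37). The median of the 5 was 0.11, against 0.01 over all genes. Without the 5 hearts with atrial transcripts, Frzb, Sfrp2 and Wif1 passed, at 0.88, 0.70 and -0.77.

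At 2 weeks the same 4 members rose in control hearts, where 23.8% of all genes were called. The log2 differences were 2.49 ± 0.23 for Frzb (adjusted p = 1.2e-05), 2.43 ± 0.36 for Sfrp2 (adjusted p = 3.5e-04), 1.93 ± 0.57 for Dkk3 (adjusted p = 0.025) and 1.48 ± 0.21 for Sfrp1 (adjusted p = 2.5e-04). That of Wif1 was -1.17 ± 0.44 (adjusted p = 0.068), and it passed without heart 11 (-1.87), 12 (-1.65), 14 or 15 or all hearts with atrial transcripts (-1.38). The call on Dkk3 ended without heart 11, 12 or 32 (adjusted p 0.0045 to 0.18 over 29 alternatives). In CKO hearts at 2 weeks 4 of the 5 passed, 3 higher and 1 lower, while 19.3% of all genes were called. Frzb rose by 1.54 ± 0.23 (adjusted p = 0.0010), Sfrp2 by 1.12 ± 0.36 (adjusted p = 0.040) and Sfrp1 by 0.71 ± 0.21 (adjusted p = 0.029), and Wif1 fell by 1.44 on the same scale (SE 0.44, adjusted p = 0.034). Dkk3 differed by 0.17 ± 0.57 (adjusted p = 0.87), and by 1.28 without the hearts with atrial transcripts, where it passed (adjusted p 0.038 to 1 over 29 alternatives). Of the CKO calls, that of Sfrp1 ended without heart 14, 15 or 31 or all hearts with atrial transcripts, and that of Wif1 without 13, 15 or 31. With only these 2 groups in the fit all 4 ended, that of Frzb at an adjusted p of 0.072 (9.7e-04 to 0.072 over 29 alternatives). Sfrp2 passed in 17 of 28 alternatives.

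At 4 weeks 4 of the 5 rose in control hearts, and 12.7% of all genes were called. Dkk3 rose by 2.09 ± 0.57 (adjusted p = 0.030), Frzb by 1.74 ± 0.23 (adjusted p = 5.2e-04), Sfrp2 by 1.56 ± 0.36 (adjusted p = 0.012) and Sfrp1 by 0.77 ± 0.21 (adjusted p = 0.027). Wif1 differed by -0.28 ± 0.44 (adjusted p = 0.73). Leaving out any 1 of the 4 hearts ended the calls on Dkk3 and Sfrp2, and leaving out heart 1, 6 or 7 that on Sfrp1. In CKO hearts at 4 weeks limma called none of the 5 and 0.262% of all genes, with 1 member, Sfrp1, and 12.7% of all genes at an unadjusted p under 0.05. The log2 differences there were -0.50 ± 0.21 for Sfrp1, 0.32 ± 0.36 for Sfrp2, 0.19 ± 0.23 for Frzb, -0.50 ± 0.57 for Dkk3 and 0.50 ± 0.44 for Wif1, with adjusted p of 0.34 to 0.77.

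**Figure D3:**
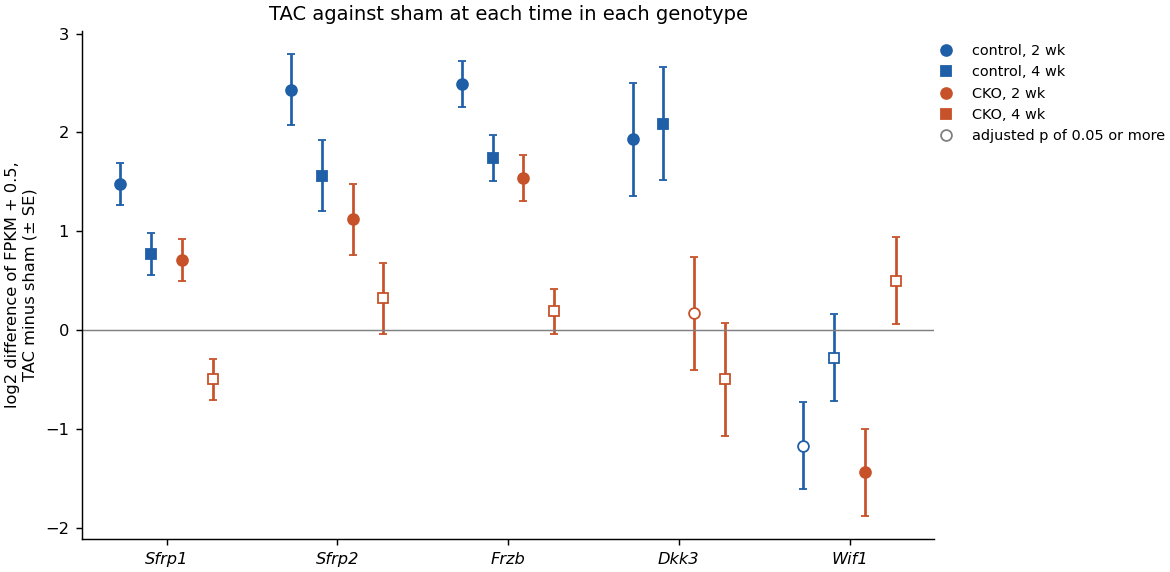
Log2 difference of FPKM + 0.5 between TAC and sham hearts (points, with SE bars) for the 5 members that entered the fit, at 2 and 4 weeks in control and CKO hearts; open symbols have an adjusted p of 0.05 or more. Filled points of Sfrp1, Sfrp2 and Frzb lie above 0 in all groups but CKO hearts at 4 weeks, where Sfrp1 is at -0.50.

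Fibroblast genes were counted in the same comparisons. Of 12 fibroblast markers, all tested, 10 rose and 1 fell in control hearts over both times (median log2 difference 1.15) and 7 rose and 1 fell in CKO hearts (median 0.53). Of 10 markers of activated fibroblasts and fibrous tissue, 9 were tested. All 9 rose in control hearts (median 3.02) and 4 rose in CKO hearts (median 0.69). Of all genes tested, 31.4% were called in control and 9.11% in CKO hearts over both times. At 4 weeks in CKO hearts none of either list passed, with medians of -0.14 and 0.10, and only 0.262% of all genes did. The summed FPKM of the activated list was 548 to 575 in control TAC hearts and 240 to 298 in CKO TAC hearts at 2 weeks, and 252 to 279 and 48.7 to 81.4 at 4 weeks. Sham hearts held 24.8 to 48.0. At 2 weeks the sum of the fibroblast list was 2230 to 2290 FPKM in control TAC and 1390 to 1480 in control sham hearts. In CKO hearts it was 1520 to 1800 after TAC and 1400 to 1540 after sham. At 4 weeks it was 1460 to 1620 after TAC and 1440 to 1530 after sham in controls, which overlap. CKO TAC hearts at 4 weeks, at 1320 to 1360, lay below their shams at 1550 to 1650. The part of fibroblasts in the result was not tested. Epicardial markers summed to 2.27 to 10.4 FPKM over all hearts, with Upk1b at 0 in 16, Krt8 in 12 and Lrrn4 in 10. Wt1 (0.874 to 3.44 FPKM) and Tbx18 (0.974 to 2.21) of the same list were above 0 in every heart. Of the adipocyte markers, Lep was at 0 in 16 hearts, Plin1 in 8, Retn in 7, Cidec in 4 and Adipoq in 3. Their highest values were 0.0865, 0.340, 2.47, 0.971 and 2.45 FPKM. Pnpla2 of the same list was 78.8 to 165 FPKM and above 0 in every heart.

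Genotypes were compared at each stage. In TAC hearts at 4 weeks 1 of the 5, Frzb, was lower in CKO than in control hearts, by 1.24 ± 0.23 on the log2 scale in size (limma adjusted p = 0.023), while 0.834% of all genes were called. Sfrp2 differed by -1.58 ± 0.36 (adjusted p = 0.060), Dkk3 by -2.21 ± 0.57 (adjusted p = 0.11), Sfrp1 by -0.79 ± 0.21 (adjusted p = 0.12) and Wif1 by 0.45 ± 0.44 (adjusted p = 0.76). CKO and control hearts did not overlap in any of these 5 genes, nor in 42.3% of all genes tested. The Frzb call ended without heart 1, 2, 3 or 41 (adjusted p 0.017 to 0.23 over 29 alternatives). Without the hearts with atrial transcripts, Sfrp2 and Dkk3 also passed, at -1.58 and -2.21. None of the hearts compared here is among those left out, so both differences stayed the same and only their adjusted p changed. Of the activated fibroblast list, 6 of 9 were lower in CKO hearts in this comparison (median -1.91), and 3 of the 12 fibroblast markers (median -0.44).

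In TAC hearts at 2 weeks limma called none of the 5 and 0.413% of all genes, with 4 members and 12.8% of all genes at an unadjusted p under 0.05. Sfrp1 differed by -0.76 ± 0.21, Frzb by -0.89 ± 0.23, Sfrp2 by -1.23 ± 0.36, Dkk3 by -1.33 ± 0.57 and Wif1 by -0.50 ± 0.44, with adjusted p of 0.11 to 0.72. Of these, Wif1 alone overlapped between genotypes, and 40.6% of all genes tested did not overlap. In sham hearts over both times limma called none, with no member and 4.11% of all genes at an unadjusted p under 0.05, and 0.00794% of all genes; the differences ran from -0.29 for Wif1 to 0.41 for Dkk3. At the end of tamoxifen it called none of the 5 and 0.0159% of all genes, with 1 member and 3.42% of all genes at an unadjusted p under 0.05. Dkk3 was there 2.46 ± 0.57 higher in CKO hearts (unadjusted p = 7.6e-04, adjusted p = 1), and both CKO hearts are among those with atrial transcripts. Over all 5 stages none passed, while 0.151% of all genes did, and Sfrp1, Sfrp2 and Frzb, beside 8.59% of all genes, had an unadjusted p under 0.05 at -0.23 ± 0.09, -0.54 ± 0.16 and -0.36 ± 0.10.

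Whether the response to TAC itself differed between genotypes was tested as a difference of differences. Over both times the response of 2 of the 5 was smaller in CKO hearts, while 1.25% of all genes were called. The CKO response minus the control response was -1.25 ± 0.23 for Frzb (limma adjusted p = 0.019) and -1.02 ± 0.21 for Sfrp1 (adjusted p = 0.031). It was -2.18 ± 0.57 for Dkk3 (adjusted p = 0.088), -1.27 ± 0.36 for Sfrp2 (adjusted p = 0.11) and 0.26 ± 0.44 for Wif1 (adjusted p = 0.87). Without the hearts with atrial transcripts neither passed, at -1.43 for Frzb and -0.92 for Sfrp1. The Frzb call also ended without heart 8, 14 or 32, and Sfrp1 passed in 17 of 29 alternatives. Without heart 15 the difference of Dkk3 was -2.73. That fit leaves heart 14, one of the hearts with atrial transcripts, as the only CKO sham heart at 2 weeks. Dkk3 was 6.54 FPKM in heart 14 and 1.02 in heart 15. Without the hearts with atrial transcripts the difference of Dkk3 was -1.80. With all hearts, the difference of responses over both times was called lower in 7 of 9 activated fibroblast markers (median -2.10) and 5 of 12 fibroblast markers (median -0.58). At 4 weeks alone 1 of the 5 passed, Frzb at -1.55 ± 0.33 (adjusted p = 0.047), against 0.747% of all genes. It passed in 9 of 29 alternatives. Dkk3 differed there by -2.59 ± 0.81 (adjusted p = 0.19) and Sfrp1 by -1.27 ± 0.29 (adjusted p = 0.073). Sfrp2 differed by -1.24 ± 0.50 (adjusted p = 0.33) and Wif1 by 0.78 ± 0.62 (adjusted p = 0.67). Without the hearts with atrial transcripts Dkk3 passed at 4 weeks and Frzb did not, at -2.59 and -1.55. No 4-week heart is among those left out, so both differences stayed the same and only their adjusted p changed. At 2 weeks alone none of the 5 passed, against 0.0159% of all genes, with 4 members and 7.92% of all genes at an unadjusted p under 0.05 and differences of -1.76 ± 0.81 for Dkk3, -1.30 ± 0.50 for Sfrp2, -0.95 ± 0.33 for Frzb, -0.77 ± 0.29 for Sfrp1 and -0.27 ± 0.62 for Wif1.

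From 2 to 4 weeks after TAC, Sfrp1 fell in both genotypes and Frzb in CKO hearts. Among controls 1 of the 5, Sfrp1, fell by 1.10 (SE 0.21, limma adjusted p = 0.020), while 2.16% of all genes were called, and Frzb differed by -0.90 ± 0.23 (adjusted p = 0.063), Sfrp2 by -0.69 ± 0.36 (adjusted p = 0.32), Dkk3 by -0.68 ± 0.57 (adjusted p = 0.57) and Wif1 by 0.14 ± 0.44 (adjusted p = 0.90). The Sfrp1 call ended without heart 1, 2, 11 or 32 and also without all hearts with atrial transcripts. Among CKO hearts 2 of the 5 fell, Sfrp1 by 1.12 (SE 0.21, adjusted p = 0.0048) and Frzb by 1.24 (SE 0.23, adjusted p = 0.0050), while 14.9% of all genes were called. Both calls ended without heart 31. Sfrp2 differed by -1.04 ± 0.36 (adjusted p = 0.064), Dkk3 by -1.57 ± 0.57 (adjusted p = 0.079) and Wif1 by 1.09 ± 0.44 (adjusted p = 0.11). Of the 12 fibroblast markers, 6 fell in controls and 9 fell and 1 rose in CKO hearts over the same interval. The same was asked of hearts without TAC. Between the end of tamoxifen and 2 weeks after sham none of the 5 passed (1, Frzb at -0.50 ± 0.16, had an unadjusted p under 0.05, as had 15.6% of all genes), while 0.913% of all genes were called. Between sham hearts at 2 and 4 weeks limma called none of the 5 and 0% of all genes, with Dkk3 at -0.86 ± 0.40, and Wif1 at -0.80 ± 0.31 with an unadjusted p of 0.022, where 15.0% of all genes were under 0.05.

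Dkk3, Wif1 and Sfrp5 were also set beside the atrial transcripts, since the list of atrial markers also held Dkk3. In the 5 hearts that reached 10 FPKM of Myl7, Dkk3 was 3.02 to 10.1 FPKM (median 6.54). In the other 8 hearts without TAC it was 0.450 to 1.68 (median 0.975), and in the other 7 TAC hearts 0.691 to 7.53 (median 3.41). The summed level of 7 atrial markers, Dkk3 left out, was 90.8 to 758 FPKM in the 5 hearts and 14.8 to 42.5 in the rest. Myl7, by which the 5 hearts were chosen, is in that sum, so the gap was largely set by the choice. Myl4 (lowest 26.2 FPKM in the 5, highest 5.64 in the rest) and Sln (4.07 and 0.448) separated as well. In Tbx5, Kcnj3, Nr2f2 and Bmp10 the lowest of the 5 was below the highest of the rest. Sln was at 0 in 13 hearts. Control TAC hearts at 4 weeks held 5.17 and 5.38 FPKM of Dkk3 with Myl7 at 0.359 and 0 FPKM, and heart 32 held 7.53 with Myl7 at 1.66. The rise of Dkk3 in control TAC hearts was 2.18 without the 5 hearts and 2.01 with them, and passed in both. In the 5 hearts, which include TAC heart 11, Wif1 was 0.649 to 3.45 FPKM (median 2.37) and Sfrp5 0.276 to 1.72 (median 1.09). In the other hearts without TAC they were 0.454 to 2.15 (median 0.868) and 0.165 to 1.39 (median 0.444), so both overlapped. Heart 11 held 0.977 FPKM of Wif1 and 0.276 of Sfrp5. The other 7 TAC hearts lay below it in both, at 0.0624 to 0.875 and 0 to 0.175. A link of Wif1 or Sfrp5 with atrial content was not tested. Sfrp1, Sfrp2 and Frzb overlapped between the 5 hearts and the other hearts without TAC as well. Their lows were 4.71, 1.10 and 2.04 FPKM in the 5, and their highs 7.66, 1.82 and 3.42 in the other hearts without TAC.

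**Figure D4:**
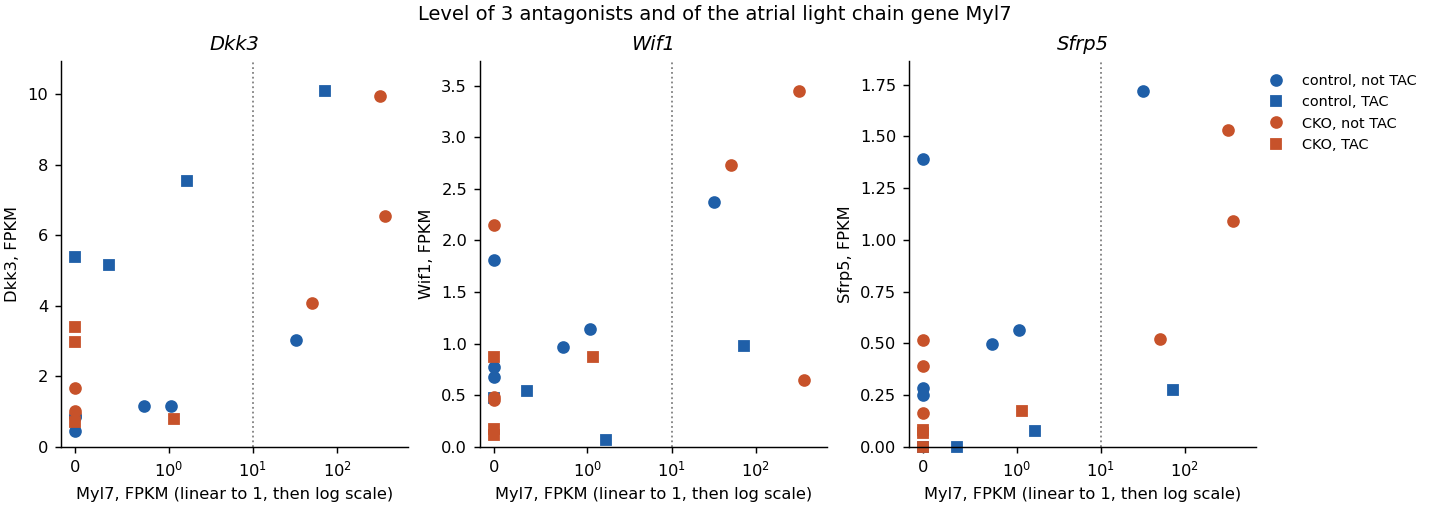
FPKM of Dkk3, Wif1 and Sfrp5 in each of the 20 hearts (points) against FPKM of Myl7 (horizontal axis, linear to 1 and logarithmic above); the dotted line is at 10 FPKM and squares are TAC hearts. Right of the line Dkk3 is 3.02 to 10.1 FPKM, and left of it only TAC hearts exceed 1.68.

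Within the set, Sfrp2 and Frzb were the most alike. The root mean square difference of their centred log2 levels over the 20 hearts was 0.374, against spreads of 0.869 and 0.849 for the genes themselves. Sfrp1 came next to Frzb at 0.458 and to Sfrp2 at 0.557, and Frzb and Wif1 were farthest apart at 1.391. Among the 10638 genes that averaged 1 FPKM or more, those nearest to Sfrp1 were Sulf1 (0.184), Ptgis (0.207) and Csrp2 (0.232), where Sulf1 is a sulfatase that trims heparan sulfate. Those nearest to Frzb were the matrix genes Col5a2 (0.216) and Bgn (0.245) and Itgbl1 (0.282). Sfrp2 had Itgbl1 (0.332), the protease gene Ctsk (0.343) and Frzb nearest. Dkk3 had no close neighbour: Pdgfrl, Mdk and Myc lay at 0.746 to 0.757, against its own spread of 1.114. Wif1 had Bbs2 and Slc36a2, both at 0.478, and Dhdh at 0.509, against 0.763, and Sfrp5 had Alox5 (0.401) and Gzmm (0.439), against 0.668. The hearts share their libraries across genes, and nothing is read from the likeness of Dkk2, whose spread of 0.112 is that of a gene near 0.

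Other genes of the pathway were counted from lists. Of 10 further secreted inhibitors, Draxin was not analysed here and 8 were too low for the fit, with Sfrp4 at most 0.362 FPKM, Dkk1 at most 0.0651, and Dkk4 and Cer1 listed at 0 in every heart. Igfbp4, a binding protein for insulin-like growth factors that also antagonises Wnt signalling, was the 1 tested, at 39.7 to 79.6 FPKM. It rose at 2 weeks after TAC in control (0.55 ± 0.15, limma adjusted p = 0.017) and CKO hearts (0.52 ± 0.15, adjusted p = 0.028), and fell from 2 to 4 weeks after TAC in both (by 0.76 and 0.82 on the log2 scale, adjusted p = 0.022 and 0.0047).

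Of 19 Wnt ligand genes only Wnt5a, Wnt5b, Wnt9a and Wnt11 were high enough to be tested, and none of the 19 was over 4.11 FPKM. In control hearts after TAC, over both times, Wnt5a fell by 0.76 (SE 0.15, limma adjusted p = 0.0015) and Wnt5b rose by 0.55 ± 0.18 (adjusted p = 0.029); the median of the 4 was -0.18. In CKO hearts Wnt5a fell by 0.55 (SE 0.15, adjusted p = 0.034) and no other ligand passed. Of 18 receptors and co-receptors 14 were tested, and in control hearts 4 rose, a share no higher than the 31.4% of all genes called there: Fzd2 by 0.82 ± 0.15 (adjusted p = 0.0010), Kremen1, a partner of Dickkopf proteins, by 0.50 ± 0.11 (adjusted p = 0.0044), Fzd1 by 0.40 ± 0.14 (adjusted p = 0.039) and Fzd6 by 0.30 ± 0.07 (adjusted p = 0.0047). None of the 14 passed in CKO hearts over both times, where 9.11% of all genes were called. At 2 weeks Fzd1, Fzd2 and Ptk7 rose in CKO hearts, by 0.62 ± 0.20, 0.98 ± 0.21 and 1.01 ± 0.29, and 19.3% of all genes were called. The median of the receptors was 0.00 in control hearts. Lrp5 and Lrp6, the co-receptors that Dickkopf proteins bind, were 11.7 to 17.7 and 7.0 to 9.87 FPKM and did not pass in any comparison.

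Of 9 R-spondins, their receptors and genes of Wnt secretion, 4 were tested and 1 passed. Lgr6, a receptor for R-spondins, fell after TAC by 1.24 (SE 0.12, limma adjusted p = 7.2e-06) in control and by 0.59 (SE 0.12, adjusted p = 0.010) in CKO hearts, and at 2 weeks it was 0.88 ± 0.17 higher in CKO than in control TAC hearts (adjusted p = 0.040). Of 12 targets and feedback genes of the beta-catenin branch 7 were tested. In control hearts after TAC 4 rose, Nkd2 by 1.58 ± 0.26, Myc by 1.02 ± 0.30, Apcdd1 by 0.70 ± 0.20 and Ccnd1 by 0.44 ± 0.15, and Tnfrsf19 fell by 0.83 (SE 0.17), with adjusted p of 4.6e-04 to 0.036. Of all genes tested, 31.4% were called there. In CKO hearts none passed over both times, where 9.11% of all genes did, and Ccnd1 rose at 2 weeks by 0.96 ± 0.21 (adjusted p = 0.0077). Axin2, the feedback gene most used as a readout of that branch, was 0.360 to 1.12 FPKM and did not pass in any comparison. No receptor, ligand or target passed in the difference of TAC responses between genotypes, where only 1.25% of all genes did over both times.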

How the data were processed

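Total RNA of 20 hearts was extracted with miRNeasy Mini and sequenced as TruSeq Stranded mRNA libraries, per the labels' protocols. The authors deposited 1 table of FPKM per heart; the submitters' processing notes name TopHat2 2.1.1, Bowtie2, Cuffdiff 2.2.1 and mm10. Each table holds 23284 genes. From these values, log2(FPKM + 0.5) was fitted with limma 3.58.1 (R 4.3.3) as 10 group means with a trended prior, over the 12589 genes with a mean of 0.5 FPKM or more, in 18 comparisons. P-values were adjusted by the Benjamini-Hochberg method over all genes tested, and a call is an adjusted p under 0.05. Errors in the fit are SE with 10 residual degrees of freedom. The labels do not say whether hearts were pooled, and p-values measure the spread between these hearts. Fragments were inferred from the steps of low FPKM values, of which 98.1% lay within 0.1 of a whole number of steps. The steps were taken from these same values, so the share is no separate check of the inferred fragments. The number of reads was not available.

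The members, gene lists and the Myl7 cut of 10 FPKM were chosen with earlier results of these data known. All 7 members are named, of each pathway list up to 4 called genes with the smallest p, and the 3 genes likest to each member. Some results that this rule covers are not reported here. Ccnd1, Lrp5, Lrp6 and Axin2 were named outside that rule, after their values were seen. The fit was tested on simulated data. Alternatives changed the added FPKM, the filter, the scaling, the prior, the groups in the fit and the hearts included. Tables were read with Python 3.11.15, pandas 2.3.3 and numpy 2.4.6, and figures drawn with matplotlib 3.10.9.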

Additional observations from a re-analysis of the deposited data

Results flagged for a closer look

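For each member, hearts of 1 genotype and operation were taken as sets of 4 over both times, 28 sets in all. In 5 sets the highest or lowest heart stood far from the other 3, by over 0.829 of the range in FPKM. The sets mix 2 and 4 weeks, and low genes take few values, so this number is not set against a chance rate. Dkk3 was 3.02 FPKM in control sham heart 16 and 6.54 FPKM in CKO sham heart 14, both hearts with Myl7 above 10 FPKM. Wif1 was 2.37 FPKM in control sham heart 16 and 2.15 FPKM in CKO sham heart 15, whose Myl7 was listed at 0. Dkk2 was 0.0 FPKM in CKO sham heart 8, which is 0 fragments beside 1 in each of the other 3 of its set and at most 5 in any heart.

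The response to TAC differed between genotypes by limma for 2 members. Over both times the CKO response minus the control response was -1.02 for Sfrp1 and -1.25 for Frzb on the log2 scale, and at 4 weeks alone -1.55 for Frzb. Neither member passed over both times without the hearts that reached 10 FPKM of Myl7.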

How the results depend on the processing

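Over 2559 combinations of a member, a comparison and an alternative, no called value turned its direction, 90 lost the call and 32 gained one. The counts of members called that moved by over 1.5 times come first. With only the groups compared in the fit, the count went from 1 to 0 for CKO against control TAC hearts at 4 weeks, from 4 to 0 for TAC in CKO hearts at 2 weeks, from 1 to 2 for TAC in CKO hearts over both times, from 2 to 0 and from 1 to 0 for 4 against 2 weeks of TAC in CKO and control hearts, and from 1 to 0 for the difference of responses at 4 weeks. Without the hearts that reached 10 FPKM of Myl7 these counts were 3 for CKO against control TAC hearts at 4 weeks, 3 for TAC in CKO hearts over both times, 5 and 0 for 4 against 2 weeks in CKO and control hearts, and 0 for the difference of responses over both times. With no filter or a filter of 3 FPKM, TAC in CKO hearts at 2 weeks gave 2, and the difference of responses at 4 weeks gave 0, as it did with no trend in the prior and with quantile normalization. The difference over both times gave 1 with no filter. With 1 FPKM added, 4 against 2 weeks in control hearts gave 2. Smaller moves were those of TAC against sham in control hearts, from 4 to 3 at 2 and at 4 weeks with only the groups compared or a filter of 3 FPKM, to 3 at 4 weeks with no filter, and to 5 at 2 weeks and over both times without the hearts that reached 10 FPKM of Myl7; over both times the count was 5 with no filter, which lets Sfrp5 in, and 3 with the filter of 3 FPKM, which leaves Sfrp2 out. Quantile normalization took TAC in CKO hearts at 2 weeks from 4 to 3.

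Leaving out 1 heart at a time gave 0 to 2 calls for CKO against control TAC hearts at 4 weeks, 0 to 1 and 0 to 2 for the difference of responses at 4 weeks and over both times, 1 to 4 and 1 to 2 for TAC in CKO hearts at 2 weeks and over both times, 1 to 4 for TAC in control hearts at 4 weeks, 3 to 5 at 2 weeks and 4 to 5 over both times, and 0 to 3 and 0 to 1 for 4 against 2 weeks in CKO and control hearts. A heart left without a partner was assumed to vary like the other groups. Where the fit or the hearts changed, the tests rest on fewer samples, and otherwise the cause was not tested. No paired analysis was possible because each heart number occurs once in the labels. Depth limits Dkk2, Sfrp5 and the low Wif1 hearts, which rest on few fragments.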
